A study of Mus musculus with 6 samples.

Results

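A set of 10 genes that report on or restrain ERK signalling was followed in mouse melanoma cells with and without Spp1: Dusp4, Dusp6, Spry1, Spry2, Spry4, Spred1, Spred2, Etv1, Etv4 and Etv5. They were taken by gene symbol from the table of scaled reads, where all 10 were found among 19213 listed genes, and all 10 passed the filter on low values. The control group was 3 samples of melanoma cells carrying a non-targeting control, and the other group was 3 samples with a CRISPR-Cas9 knockout of Spp1, the gene for the secreted phosphoprotein osteopontin. All 6 samples are labelled as 1 batch, and the named cell line differs in every sample: B16F10 (a metastatic mouse melanoma line), B16F11 and B16F12 for control 1 to 3, and B16F13, B16F14 and B16F15 for knockout 1 to 3. The labels do not say whether the samples of a group were separate cultures, clones or a pool, so the p-values rest on a spread between samples that may be technical. If the cells behind the names differed, that difference and the knockout cannot be told apart.

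In the ERK cascade, active RAS switches on RAF kinases, these activate MEK kinases, and these activate the ERK kinases. Active ERK induces its own brakes: the phosphatases DUSP4 and DUSP6 remove the activating phosphates from ERK, Sprouty proteins act between growth factor receptors and RAF, and SPRED proteins bring the RAS inhibitor neurofibromin to the membrane. ETV1, ETV4 and ETV5, the PEA3 group of ETS transcription factors, are induced by the same signal, in part through loss of repression by Capicua (CIC). The RNA levels of these genes are widely used as readouts of ERK output in melanoma, where the pathway is often active through mutation. They are not a measurement of ERK activity itself.

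PolyA RNA was read as paired-end libraries of 72717465 to 94314770 recovered reads. Levels are given as scaled reads, that is, reads per gene after the authors' DESeq normalization of each library. The members were read between 230 times (Etv4 in control 2) and 13581 times (Dusp6 in control 3) in a library. Spp1 itself stood at 149, 156 and 145 scaled reads in the control libraries and at 2.09, 1.98 and 3.90 in the knockout libraries. Melanocyte markers were abundant, as the label melanoma cells implies, with all 7 listed and a summed level of 898571 to 914819 in control and 1059657 to 1070434 in knockout (Tyrp1 and Dct rose by 0.28 and 0.35 and Tyr fell by 0.55 on the log2 scale). Markers of other cell types stood far below the melanocyte markers. The summed level was 1235 to 1524 in control and 502 to 582 in knockout for 2 listed fibroblast markers of 5. Almost all of this was Pdgfrb, which was not low beside every member: its control mean was 1355 scaled reads, against 1138 for Etv1. For 3 macrophage markers of 5, mostly Lyz2 and Cd68, the sum was 269 to 279 in control and 84.9 to 89.0 in knockout. It was at most 8.37 for 1 endothelial marker of 5 (Pecam1) and at most 30.3 for 1 epithelial marker of 5 (Krt14, log2 change 0.09, limma adjusted p = 0.738). Dcn, Lum, Thy1, Adgre1, Ptprc, Cdh5, Kdr, Tek, Emcn, Epcam, Krt8, Krt18 and Krt5 were not analysed here, the table holding only genes with at least 1 read in every library. Pdgfrb, Lyz2 and Cd68 fell by 1.36, 2.15 and 1.14 on the log2 scale, and their part in the results below was not tested. In bulk RNA, fewer cells of a type and less RNA per cell cannot be told apart.

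In Spp1 knockout 8 of the 10 genes rose, Spry1 fell and Dusp6 did not pass the test. Etv5 and Spry4 rose by 2.00-fold and 1.97-fold, Etv4, Dusp4, Spred2, Spred1 and Spry2 rose by 1.46-fold to 1.80-fold, and Etv1 rose least, by 1.24-fold. The test was limma's moderated test on log2(value + 1), two-sided, with Benjamini-Hochberg adjustment over all 15307 genes tested and a threshold of 0.05. By that rule 34.4% of all tested genes rose and 28.6% fell, 63% in all, so passing the threshold is common in these data. The balance of the directions depends on the scaling, with 5266 genes higher and 4374 lower as given and 4473 higher and 5034 lower with every library scaled to the same total. The 3 knockout libraries all lay above the 3 control libraries in 8 of the 10 genes and all below them in 1, against 36.3% and 30.8% of all tested genes, or 67.1% without overlap in all. The median log2 change of the 10 was 0.62, against 0.025 over all tested genes. A rise of at least 1.5-fold was rarer, at 5.18% of tested genes, and was found in 5 of the 10, Dusp4, Spry4, Spred2, Etv4 and Etv5; a fall of that size was found in 11.5% of tested genes and in Spry1. Tested for a change beyond 1.2-fold, a setting chosen after the data were seen, 7 of the 10 were higher and 1 was lower, against 10.3% and 14.2% of all tested genes, and Etv1 no longer passed (adjusted p = 0.570).

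**Figure D1:**
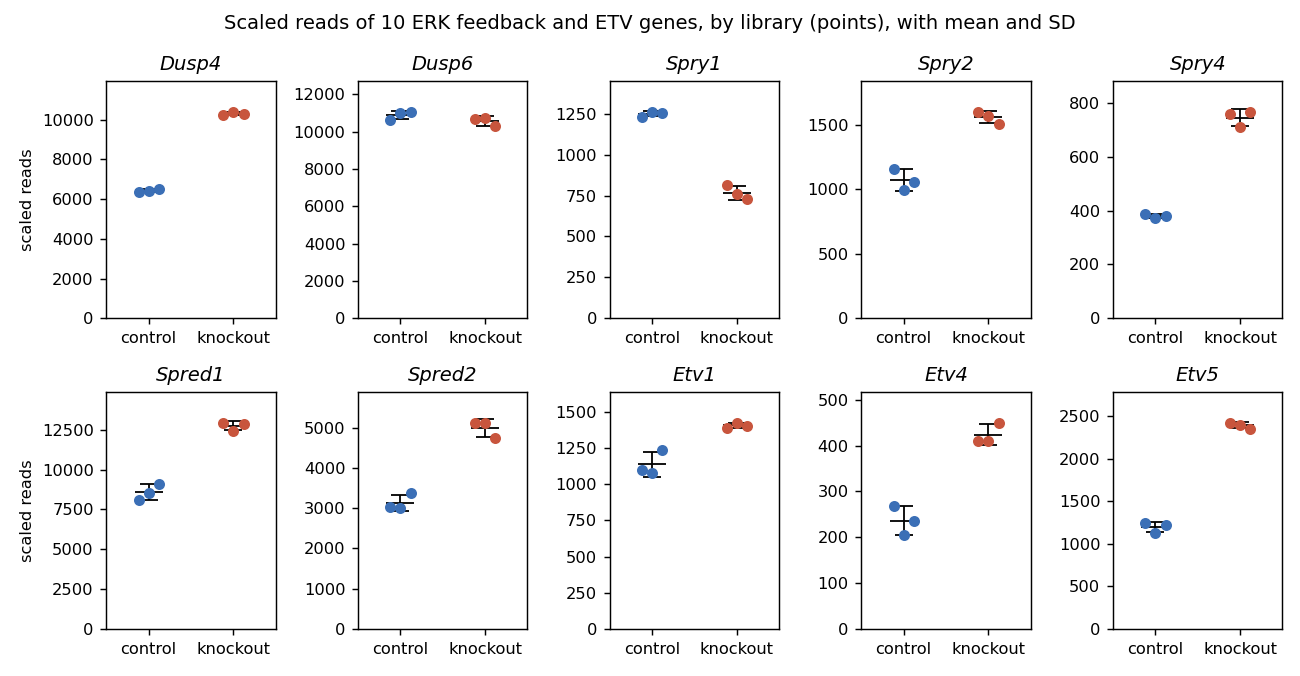
Scaled reads of the 10 genes in each library (points; 3 control in blue, 3 knockout in red), with the group mean and SD (n = 3) in black; each vertical axis starts at 0. The 3 knockout points lie above all 3 control points in 8 genes and below them in Spry1, and the groups overlap in Dusp6.

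Among the phosphatases Dusp4 rose and Dusp6 did not pass the test. DUSP4 is a nuclear phosphatase that acts on ERK and on other MAP kinases. Dusp4 (ENSMUSG00000031530.6, chromosome 8, 34807297 to 34819894, plus strand, mm10) stood at 6381, 6435 and 6508 scaled reads in control 1 to 3 and at 10253, 10395 and 10283 in knockout 1 to 3. The groups were far apart and each was tight, and the mean went from 6441 ± 63.5 to 10310.4 ± 74.4 (SD, n = 3), or 0.68 ± 0.030 in log2 units (SE, limma adjusted p = 5.73e-11). DUSP6 is the cytoplasmic phosphatase with a strong preference for ERK. Dusp6 (ENSMUSG00000019960.7, chromosome 10, 99263231 to 99267489, plus strand) stood at 10629, 10969 and 11050.3 in control and at 10678, 10735 and 10289 in knockout. These ranges overlap, and the log2 change was -0.042, with a 95% interval from -0.11 to 0.026 (adjusted p = 0.265), which corresponds to 0.926-fold to 1.02-fold. Dusp6 was called slightly lower with every library scaled to the same total (log2 change -0.092, limma adjusted p = 0.0143) and in edgeR on the recovered reads of 5 libraries (-0.091, edgeR adjusted p = 0.0443).

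Dusp6 lies on a chromosome on which most genes were lower in knockout. Chromosome 10 held 690 tested genes, of which 586 fell and 26 rose; the median of their log2 changes was -0.58. Among the 50 tested genes nearest to Dusp6, 25 on each side, 43 fell and 1 rose, and their median was -0.59. Only 4 of these 50 genes had a log2 change above that of Dusp6. When the neighbours' median was subtracted in every library, a setting chosen after the data were seen, Dusp6 stood at 0.54 and passed the test (limma adjusted p = 1.16e-10), so that 9 of the 10 genes were higher and 1 was lower, against 29.1% and 28.1% of all tested genes. The part of the chromosome-wide shift in the level of Dusp6 was not tested. For the other 9 genes the subtraction kept the direction and the call: Etv5 stood at 0.88, Spry4 at 0.84, Etv4 at 0.81, Spred2 at 0.70, Dusp4 at 0.59, Spred1 at 0.42, Spry2 at 0.32, Etv1 at 0.28 and Spry1 at -0.42.

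**Figure D2:**
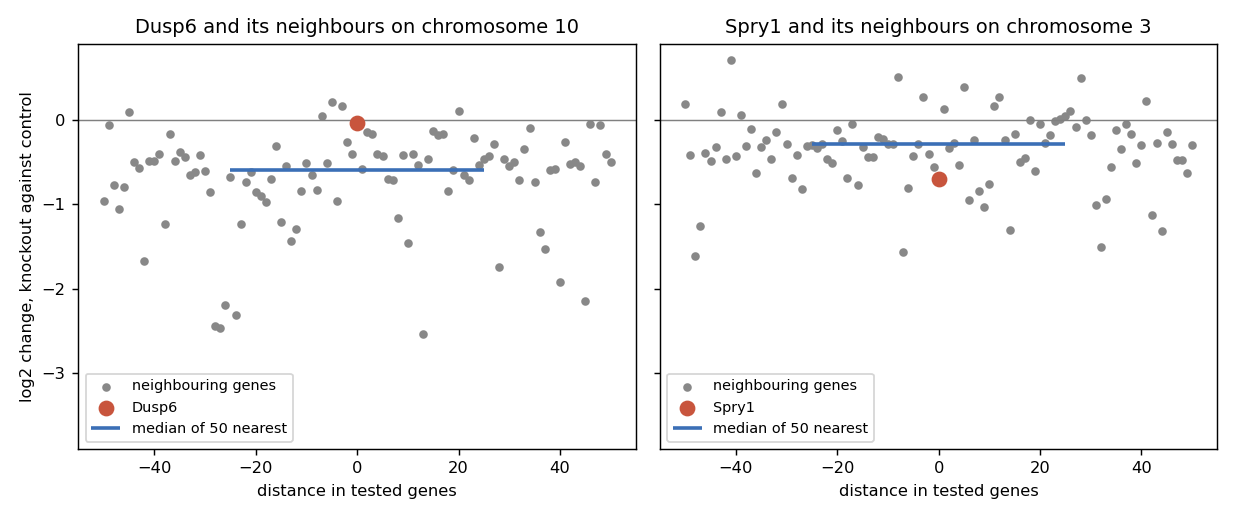
Log2 change in knockout against control of the tested genes around Dusp6 (left) and Spry1 (right), by distance in tested genes; grey points are up to 50 neighbours on each side, the red point is the named gene and the blue line is the median of the 50 nearest. The medians are -0.59 and -0.29; Dusp6 at -0.042 sits above most of its neighbours, and Spry1 at -0.71 below most of its own.

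The Sprouty genes parted. SPRY1, SPRY2 and SPRY4 are membrane-associated inhibitors of receptor tyrosine kinase signalling. Spry4 (ENSMUSG00000024427.6, chromosome 18, 38586247 to 38601415, minus strand) stood at 385, 371 and 379 scaled reads in control and at 759, 710.3 and 766 in knockout. Each knockout library was far above the highest control library, and the log2 change was 0.97 ± 0.064 (SE, limma adjusted p = 3.90e-09). Spry2 (ENSMUSG00000022114.4, chromosome 14, 105891947 to 105896819, minus strand) stood at 1158, 995 and 1055 in control and at 1597, 1569.9 and 1503 in knockout. The lowest knockout library lay above the highest control library, and the log2 change was 0.54 ± 0.057 (adjusted p = 6.22e-07). Spry1 (ENSMUSG00000037211.12, chromosome 3, 37639947 to 37644598, plus strand) stood at 1233, 1262 and 1256 in control and at 813, 759 and 730.0 in knockout. It was lower in all 3 knockout libraries, at 0.613 of the control level (log2 change -0.71 ± 0.054, adjusted p = 2.02e-08). Its 50 nearest tested genes also tended to be lower, with a median of -0.29, 30 lower and 3 higher, and 8 of them had a lower log2 change than Spry1. Over the whole of chromosome 3, 443 of 841 tested genes fell and 117 rose, with a median of -0.24. The part of this shift in the level of Spry1 was not tested. The predicted gene Gm42922 covers 24.4% of the exon length of Spry1 on the other strand, and without a stated strand setting their reads cannot be told apart.

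The make-up of the Sprouty transcripts differed between the groups as well as their sum. Levels of different genes are compared here as scaled reads per kilobase of exon. The sum of the 3 Sprouty genes was 1060.4, 989 and 1018 per kilobase in control and 1205, 1163 and 1133 in knockout, a modest rise with no overlap of the groups. Spry1 made up 42.1% ± 1.96 of that sum in control and 22.6% ± 0.535 in knockout (SD, n = 3). The share of Spry2 went from 50.1% ± 2.09 to 63.9% ± 0.658 and that of Spry4 from 7.79% ± 0.13 to 13.4% ± 0.709. In all 3 genes the shares of the 2 groups did not overlap. No test of these shares was made.

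**Figure D3:**
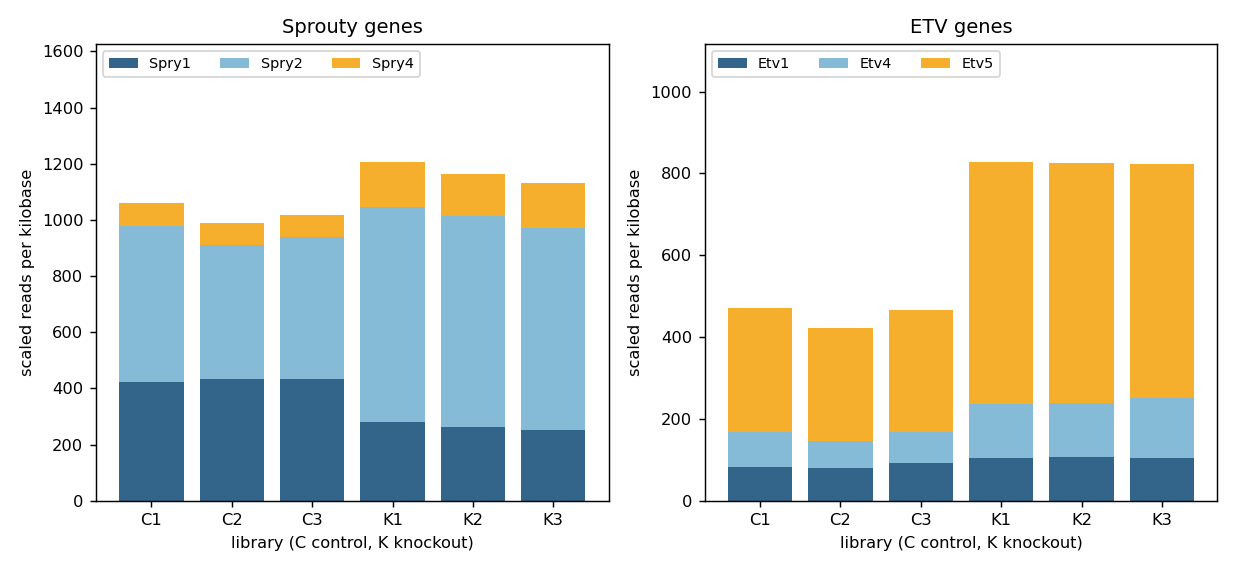
Scaled reads per kilobase of exon of the Sprouty genes (left) and the ETV genes (right) in each library (C control, K knockout), stacked by gene. Spry1 takes a smaller part of the Sprouty bars in knockout, while the ETV bars grow from between 421 and 471 to between 823 and 827, mostly through Etv5.

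Both SPRED genes rose. SPRED1 and SPRED2 bind neurofibromin, which switches RAS off, and loss of SPRED1 causes Legius syndrome in humans. Spred1 (ENSMUSG00000027351.14, chromosome 2, 117121374 to 117182279, plus strand) stood at 8092, 8507 and 9096 scaled reads in control and at 12945, 12425 and 12858 in knockout. Spred2 (ENSMUSG00000045671.17, chromosome 11, 19924375 to 20024026, plus strand) stood at 3028, 3011 and 3372 in control and at 5128, 5113 and 4735 in knockout. In both genes every knockout library was above every control library. The log2 changes were 0.57 ± 0.040 for Spred1 and 0.67 ± 0.048 for Spred2 (SE, limma adjusted p = 6.45e-09 and 1.13e-08), with overlapping 95% intervals of 0.49 to 0.66 and 0.57 to 0.77; the difference between the 2 genes was not tested. Spred1 made up 65.0% ± 0.673 of the sum of both per kilobase in control and 63.5% ± 1.31 in knockout, and the libraries of the 2 groups overlapped in this share. The third family member, Spred3, on chromosome 7, was low and rose from a mean of 355 to one of 483 scaled reads (log2 change 0.44 ± 0.078, limma adjusted p = 0.000142; 0.29 net of its neighbours).

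All 3 PEA3-group factors rose, Etv5 the most and Etv1 the least in these libraries. Etv5 (ENSMUSG00000013089.15, chromosome 16, 22381309 to 22439719, minus strand) stood at 1241, 1125 and 1219.7 scaled reads in control and at 2422, 2399.8 and 2350.2 in knockout. The knockout libraries were tight and far above the control libraries, with a log2 change of 1.00 ± 0.047 (SE; adjusted p from limma, 1.00e-10), the largest rise of the 10. The predicted gene Gm4798 is the main sharer of the 24.5% of 50-base words of Etv5 that occur in another gene, so some of its reads are uncertain. Etv4 (ENSMUSG00000017724.14, chromosome 11, 101769742 to 101785371, minus strand) was the lowest member, with control libraries at 267, 206 and 236 and knockout libraries at 410.1, 411 and 449.9. Its groups did not overlap, and with the largest SE of the 10 the log2 change was 0.85 ± 0.097, with a 95% interval of 0.64 to 1.05 (adjusted p = 1.71e-06). Etv1 (ENSMUSG00000004151.16, chromosome 12, 38779380 to 38870484, plus strand) stood at 1099, 1077 and 1238 in control and at 1390.2, 1424 and 1403 in knockout. The gap between the highest control and the lowest knockout library was small, and the log2 change was 0.31 ± 0.055 (adjusted p = 0.000163). The 95% interval of Etv1, 0.19 to 0.43, lies below those of Etv4 and Etv5; the differences between the genes were not tested. The sum of the 3 genes per kilobase went from 453 ± 27.5 to 825 ± 1.84 (SD, n = 3), and the share of Etv5 in it from 64.3% ± 0.672 to 70.6% ± 0.945, while that of Etv1 went from 18.9% ± 1.24 to 12.8% ± 0.176. These shares rest on the length used: with the longest transcript, a setting chosen after the data were seen, Etv1 took 30.2% ± 1.77 in control and 21.6% ± 0.267 in knockout, and Etv5 52.6% ± 0.759 and 60.6% ± 0.952.

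**Figure D4:**
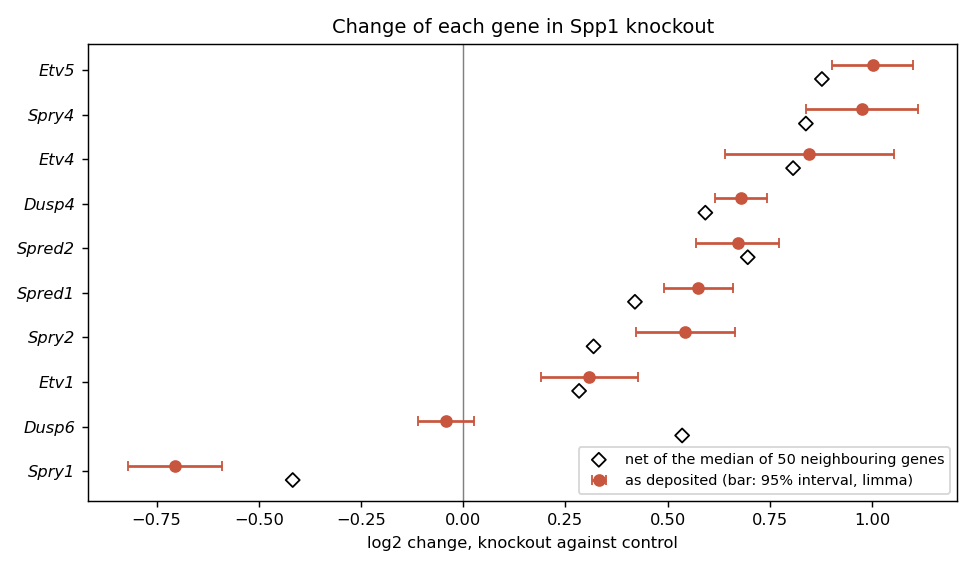
Log2 change of each of the 10 genes in knockout against control (red points, bars are 95% intervals from limma, 3 libraries a group), ordered by size, with the change net of the median of the 50 nearest genes as open diamonds. Of the red points 8 lie above 0 with their whole interval, and Spry1 lies below 0. Dusp6 has the diamond farthest from its point, and those of Spry1, Spry2, Spred1, Dusp4 and Etv5 also lie outside the interval.

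Per kilobase the phosphatases were the most abundant of the 10 and Etv4, Spry4 and Etv1 the least. In control the order ran from Dusp6 at 3475 ± 71.4 and Dusp4 at 2351 ± 23.2 through Spred1 at 1262 ± 74.4, Spred2 at 679 ± 44.1, Spry2 at 512 ± 39.5, Spry1 at 430.3 ± 5.15 and Etv5 at 291 ± 15.1 to Etv1 at 85.6 ± 6.57, Spry4 at 79.6 ± 1.51 and Etv4 at 76.1 ± 9.94 (scaled reads per kilobase of exon, SD, n = 3). The last 3 did not differ beyond their spread. In knockout Dusp4, at 3763 ± 27.2, stood above Dusp6, at 3374 ± 77.5, and Etv5, at 583 ± 8.92, above Spry1, at 264 ± 14.5. The order of Dusp4 and Dusp6 in knockout rests on the length used. With the longest transcript in place of the union of exons Dusp6 was first in both groups, and Etv1 stood above Spry4 and Etv4 in both.

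The promoter windows of Dusp6 and Spry2 hold the octamer bound by CIC, Etv5 rose most by limma on all 6 libraries, and Spry1 fell. Promoter sequences are shown for these 4 genes because they differ in response. They come from RefSeq on GRCm38.p6 and run from 250 bases before to 50 bases after the annotated start, 5′ to 3′ on the strand of the gene. Windows were at hand for 7 of the 10 genes, 9 windows in all. Dusp4, Spry4 and Etv4 had none and were not searched. Etv1 and Etv5 had 2 windows each, and the other window of Etv5 is not shown. The octamer was searched on both strands in 4 forms, TGAATGAA, TGAATGGA, TCAATGAA and TCAATGGA, and capitals mark its matches.
Dusp6, chr10:99262981-99263280, plus strand: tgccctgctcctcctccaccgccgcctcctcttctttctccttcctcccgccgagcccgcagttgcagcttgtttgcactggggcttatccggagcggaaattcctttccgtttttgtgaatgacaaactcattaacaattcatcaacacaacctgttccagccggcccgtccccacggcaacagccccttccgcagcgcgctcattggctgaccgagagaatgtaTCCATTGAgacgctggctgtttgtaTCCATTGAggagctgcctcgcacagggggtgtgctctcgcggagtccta
Spry2, chr14:105896770-105897069, minus strand: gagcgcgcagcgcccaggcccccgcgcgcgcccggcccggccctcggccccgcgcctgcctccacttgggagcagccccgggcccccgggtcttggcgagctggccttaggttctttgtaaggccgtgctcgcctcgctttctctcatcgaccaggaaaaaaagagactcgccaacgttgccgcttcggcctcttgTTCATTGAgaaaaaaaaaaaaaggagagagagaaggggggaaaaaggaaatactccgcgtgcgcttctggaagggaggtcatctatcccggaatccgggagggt
Etv5, chr16:22439521-22439820, minus strand: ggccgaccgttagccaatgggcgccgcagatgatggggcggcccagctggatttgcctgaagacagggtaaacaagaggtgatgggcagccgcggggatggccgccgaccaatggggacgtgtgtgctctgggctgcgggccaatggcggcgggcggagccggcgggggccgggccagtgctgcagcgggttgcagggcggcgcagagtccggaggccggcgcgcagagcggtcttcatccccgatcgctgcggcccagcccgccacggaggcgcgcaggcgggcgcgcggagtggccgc
Spry1, chr3:37639697-37639996, plus strand: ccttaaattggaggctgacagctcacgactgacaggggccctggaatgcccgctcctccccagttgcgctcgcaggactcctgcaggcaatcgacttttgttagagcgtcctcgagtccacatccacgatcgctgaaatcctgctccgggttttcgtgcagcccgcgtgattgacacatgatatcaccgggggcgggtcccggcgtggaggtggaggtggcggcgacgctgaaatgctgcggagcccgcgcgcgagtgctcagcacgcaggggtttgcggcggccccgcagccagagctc
The window of Dusp6 holds TCAATGGA at 2 places and that of Spry2 holds TCAATGAA at 1 place, each read on the strand opposite to the gene. Of the 9 windows 2 hold any form, as do 3.84% of 32851 promoter windows of all genes. The motifs were chosen with the promoter sequences in view, so this count cannot show an excess of octamers. The other windows of these genes have none of these letters, which says nothing about binding outside them. The ETS site CCGGAAGT, the AP-1 site TGANTCA and the cyclic AMP response element TGACGTCA, searched likewise, were found in none of the 9 windows and in 3.89%, 7.81% and 1.79% of all windows. Of the 2 genes with an octamer among the 7 searched, Spry2 had a log2 change of 0.54 and Dusp6 one of -0.042.

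Other genes of the ERK pathway moved in both directions. Across 7 lists of other pathway genes 75 were tested, of which 29 rose, 27 fell and 19 did not pass, with a median log2 change of 0.0019. Calls in both directions are common among all tested genes too, at 34.4% and 28.6%. In the core of the cascade 8 of 20 tested genes rose and 10 fell (median -0.057). The kinase gene Mapk3, which encodes ERK1, stood at 13039, 11872 and 12479 scaled reads in control and at 8004, 8235 and 7702 in knockout. All knockout libraries were lower, and the log2 change was -0.64 ± 0.038 (SE, limma adjusted p = 1.30e-09). Map2k1, for MEK1, on chromosome 9, had a log2 change of -0.68, or -0.35 after subtraction of its neighbours' median. Map2k2, for MEK2, a gene named after its values were seen, fell by 0.57 but lies on chromosome 10 and was at -0.073 net of its neighbours (limma adjusted p = 0.0830). The RAS exchange factor gene Sos1 rose by 0.74 and the receptor adaptor Gab1 by 0.44.

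**Figure D5:**
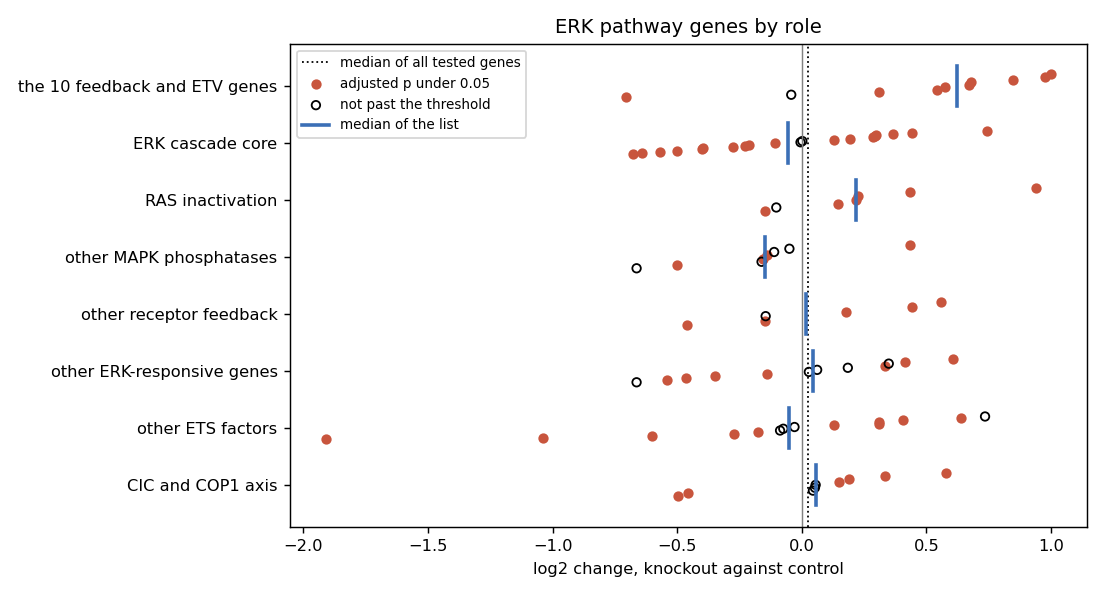
Log2 change of each tested gene by role in the pathway (rows); filled red points passed the limma threshold of 0.05 after adjustment, open points did not, the blue bar is the median of the row and the dotted line the median of all tested genes. The row of the 10 genes has a median of 0.62, and the 7 other rows have medians between -0.15 and 0.22 with points on both sides of 0.

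Genes that switch RAS off were mostly higher, with 5 of 7 rising and 1 falling (median 0.22). Over all tested genes 34.4% rose and 28.6% fell, the shares to set beside each list in this paragraph. Nf1, the neurofibromin that SPRED proteins recruit, rose from 7738 ± 537 to 10445 ± 315 scaled reads (log2 change 0.43 ± 0.045, limma adjusted p = 8.63e-07). Rasal2 fell by 0.15 (limma adjusted p = 0.0186), a call lost without control 2 or control 3 (adjusted p = 0.0539 and 0.0804). Among 8 other MAP kinase phosphatases 1 rose and 3 fell (median -0.15): Dusp1, the immediate early phosphatase, rose by 0.43, and Dusp10 and Dusp7 fell by 0.50 and 0.15. After subtraction of the neighbours' median Dusp1 was at -0.015 and Dusp7 at 0.030, and neither passed (limma adjusted p = 0.899 and 0.555). Of 6 tested genes of other receptor feedback 3 rose and 2 fell (median 0.016), with the ubiquitin ligase Cbl at 0.56, Spred3 at 0.44, the cytokine feedback gene Socs3 at -0.46 and the RAF inhibitor Pebp1 at -0.15, or -0.29 net of its neighbours. Of the 50-base words of Pebp1 22.1% also occur elsewhere, and its call was lost without the trended and robust variance (limma adjusted p = 0.0883).

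Other genes used as readouts of ERK went both ways, 3 of 12 rising and 4 falling (median 0.045). Over all tested genes 34.4% rose and 28.6% fell, the shares to set beside this list and the ETS list below. Ccnd1, the gene of cyclin D1, rose from 14014 ± 669 to 18663 ± 231 scaled reads (log2 change 0.41 ± 0.036, limma adjusted p = 6.84e-08), and 23.4% of its exon length overlaps the neighbouring gene on the other strand. Epha2, an ephrin receptor at a low level, rose by 0.61 (adjusted p = 0.137 in DESeq2 on 5 libraries). Phlda1 fell by 0.54 but lies on chromosome 10, where it was at -0.046 net of its neighbours (limma adjusted p = 0.476), and a predicted gene covers 33.0% of its exon length. Egr1, an immediate early transcription factor, fell by 0.46. Among other ETS factors 5 of 14 rose and 5 fell (median -0.052), with Ets2 at 0.64, Etv6 at 0.41, Elf4 at -1.04 and Erg at -1.91. Erg was barely read, at 10.4, 12.5 and 15.5 scaled reads in control and 2.09, 2.97 and 2.93 in knockout, so it passed the filter on low values only through the group where it was high and is no support for a fall in the list; with a minimum value of 50, 4 of 12 tested genes of the list were lower.

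Regulators of ETV1, ETV4 and ETV5 formed a list of their own. Of 9 tested genes 4 rose and 2 fell (median 0.055), against 34.4% and 28.6% of all tested genes. Cic, the repressor of ETV genes, stood at 4351, 4011 and 4853 scaled reads in control and at 5816, 5792 and 5018 in knockout. The groups came close without overlapping, and the log2 change was 0.33 ± 0.081 (SE, limma adjusted p = 0.00699; 0.0570 in DESeq2 on 5 libraries), or 0.20 net of its neighbours. Its partner gene Atxn1 had a log2 change of -0.46, or -0.16 net of its neighbours. The COP1 ubiquitin ligase, which marks ETV proteins for destruction, is listed under its older symbol Rfwd2 and rose by 0.15, a gene named after its values were seen. Trib2 rose by 0.58 and Trib1 had a log2 change of -0.50, or -0.17 net of its neighbours (limma adjusted p = 0.0482), both encoding pseudokinases that bind COP1.

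The genes with the most similar pattern over the 6 libraries were found by the distance of their log2 values, each centred on its mean. For Etv5 the nearest of all tested genes were Pard6g, Smurf1 and Fam98c, at distances of 0.057, 0.063 and 0.10. For Spry1 they were Cadm1, Irak4 and Ppm1h, at 0.040, 0.061 and 0.064. With 2 groups of 3 libraries such a distance mostly reflects a like change between the groups.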

How the data were processed

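PolyA RNA of 3 control and 3 Spp1 knockout samples was compared; groups and replicate numbers came from the sample titles. The deposited values are a signal, reads per gene that the authors normalized with DESeq, per the series' design text. Tools listed in the submitters' processing notes are STAR 2.5.0a, cutadapt 1.6, DESeq and HTSeq 0.5.3, with mm10 as the build; neither annotation release nor strand setting is given in the sources used here. Every value was a whole multiple (within 0.001) of the smallest value of its column, which was taken as the worth of 1 read; for knockout 2 this worth, 0.989, is too close to 1 to be checked, and that library was left out of the edgeR 4.0.16 and DESeq2 1.42.0 tests.

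A gene was tested when 3 or more of the 6 libraries reached 10, which left 15307 genes, and the test was made with limma 3.58.1 (R 4.3.3) on log2(value + 1), with trended and robust variance; the fit was tested on simulated data. Log2 changes are on this scale. Libraries of a group correlated at r = 0.996 to 0.997 and their reads differed beyond sampling noise (chi-square 5.89 to 16.8 for each degree of freedom). Positions, exon lengths, overlaps and shared 50-base words were taken from the M21 release of GENCODE (GRCm38, as mm10), matched by gene ID without its version (99.5% of listed genes). Intervals are 95%. Alternatives changed the pseudocount, the filter, the scaling, the variance model, the replicate block, the libraries or the tool; subtracting the neighbours' median and testing beyond 1.2-fold were added after the data were seen.

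The members and lists were chosen with earlier results of these data known, and the promoter motifs with the promoter sequences in view. Beside the 10 genes and Spp1, the genes named from a list are the called ones with the largest changes, up to 2 in each direction, or its most abundant gene if none was called, and the most raised and most lowered member give the 3 tested genes nearest in pattern. Some genes of the lists are counted but not reported here by name.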

Additional observations from a re-analysis of the deposited data

How the results depend on the processing

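Under 18 alternatives each of Dusp4, Spry1, Spry2, Spry4, Spred1, Spred2, Etv4 and Etv5 kept its direction and its call, and Etv1 did in 17, losing its call in the test against a change of 1.2-fold (log2 change 0.31, limma adjusted p = 0.570; adjusted p 1.16e-05 to 0.00740 in the other 17). That test, added after the data were seen, called 3749 genes, 1581 higher and 2168 lower, in place of 9640, and 23 of the 75 other pathway genes in place of 56, because it asks for a larger change. Among genes named above, Rasal2, Dusp1, Dusp7, Dusp10, Spred3, Pebp1, Epha2, Egr1, Cic, Tyrp1 and Rfwd2 also lost their call in it. Dusp6 was called lower, making 2 members lower, with equal totals (log2 change -0.092, limma adjusted p = 0.0143) and in edgeR on 5 libraries (-0.091, adjusted p = 0.0443), it was higher net of the neighbours' median, at 0.54, its adjusted p was 0.112 to 1.00 in the other 15 alternatives, and its log2 change ranged from -0.059 to -0.023 when 1 library was left out. RAS inactivation had 1 gene lower, but 0 without control 3, and 2 without knockout 3, with a minimum value of 50, with TMM scaling, with equal totals and in edgeR on 5 libraries. That edgeR test called 4280 genes higher and 4569 lower. Net of the neighbours' median Dusp1 was at -0.015 and Dusp7 at 0.030, opposite to their main direction. The cause of these changes was not tested.

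Replicate numbers gave no sign of pairing: the deviations of same-numbered libraries correlated at -0.107, -0.244 and -0.038, and those of other pairs at -0.120 to 0.214. With 3 libraries a group these values cannot show whether the samples were paired by design. With the replicate block 9289 genes changed, and the 10 genes kept their calls, 8 higher and 1 lower. Depth was 230 reads or more for every member in every library, and precision is limited by 3 libraries a group.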
